A study of Mus musculus with 6 samples.

Results

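Genes that handle reactive oxygen, foreign or reactive chemicals and metal ions were compared between 2 populations of mouse skin keratinocytes. The members are 46 genes of the thioredoxin, glutathione, metallothionein, aldehyde dehydrogenase and Ahr systems, each taken by its symbol in the platform annotation, and 42 of them had a probe set of their own among the 8251 named genes of the array. The tested population was EGFP-high and α6 integrin positive (3 samples), and the population it was set against was EGFP-negative and α6 integrin positive (3 samples). Both were sorted by flow cytometry from the skin of K15-EGFP transgenic mice, in which the promoter of K15, a keratin gene active in the hair follicle bulge, drives enhanced green fluorescent protein. The labels give no strain, age, sex or number of animals for either group, and no treatment. They do not state whether replicates came from different animals, so the p-values given here cover the scatter of these samples alone, which may be partly technical.

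Cells reduce oxidised proteins and peroxides with linked thiol systems: thioredoxin and its NADPH-dependent reductase, which feed the peroxiredoxins, and glutathione, which feeds glutathione peroxidases and glutathione transferases. Metallothioneins are small cysteine-rich proteins that bind zinc and copper. The transcription factor Nrf2 (Nfe2l2), held in check by Keap1, drives many of these genes through antioxidant response elements, and the aryl hydrocarbon receptor Ahr drives P450 genes such as Cyp1a1 and Cyp1b1 in skin exposed to aromatic chemicals or tryptophan products.

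The values are linear Affymetrix intensities, and differences are on the log2(intensity + 19.3) scale, EGFP-high minus EGFP-negative, from limma fitted to the 7453 probe sets that passed a filter on low values. A gene was called at a Benjamini-Hochberg adjusted p under 0.05 over all of them, on its brightest probe set. Array medians lay between 69.55 and 76.05. The 19 bacterial and yeast control probe sets, which match no mouse RNA, had 95th percentiles of 25.5 to 42.25. Cd34, a bulge marker, read 1338.8, 1579 and 1450.4 in EGFP-high samples and 34.4, 29.4 and 40.9 in EGFP-negative samples. Itga6, the α6 integrin of the sort, read 485.1, 405.6 and 585.3 in EGFP-high samples and 1178.1, 1050 and 1371.4 in EGFP-negative samples. The probe sets of the basal keratins Krt14 and Krt15 were at the level of the controls on every array, and that of Krt5 was above the control percentile on 1 array only, so the arrays do not check the sort or the basal label through them. In bulk samples fewer cells of a type and less RNA per cell cannot be told apart.

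Among the tested members, thioredoxin, a microsomal glutathione transferase, cytosolic superoxide dismutase, a glutathione synthesis subunit and microsomal epoxide hydrolase were higher in EGFP-high cells, and metallothionein 2 and the aryl hydrocarbon receptor were lower. Of 38 tested member genes 5 were higher (Txn1, Mgst1, Sod1, Gclm and Ephx1) and 2 lower (Mt2 and Ahr), against a background of 3.06% higher, 2.27% lower and 5.33% in either direction among all 5628 tested genes. The shares among the members were 13.2% and 5.26%. The members were chosen with earlier results of these data known, so these shares and the median given below are no independent test of the list. Counted by probe set, 5 of the members' 49 were higher and 2 lower, where 3.02% of all tested probe sets were higher, 2.17% lower and 5.19% either. All 6 arrays of each called member read above the 95th percentile of the control probe sets. Of the 8 listed genes with no test, 4 had only probe sets below the filter and 4 had none of their own. The other 31 tested genes did not pass, with adjusted p between 0.126 and 0.983. Of all 5628 tested genes 1000 had an unadjusted limma p under 0.05, which is the background for such counts given below. The median log2 difference was 0.19 over the 38 members and -0.0017 over all tested genes, and 25 members had a positive and 13 a negative difference. The groups did not overlap for 7 members that were higher and 5 that were lower, where 11.9% and 11.5% of all tested genes did not overlap in those directions and 23.4% in either. The replicate numbers of the titles paired the samples by correlation. With the replicate number as a block 5 members were higher and 4 lower, against 5.29% and 5.33% of all tested genes (10.6% in either direction), and Mt1 and Prdx2 were the genes added. By probe set, 6 were higher and 4 lower with the block, where 10.4% of all tested probe sets passed.

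Single arrays moved the number of members higher in fits without the replicate block. Leaving out EGFP-high replicate 2 or 3, or EGFP-negative replicate 2 or 3, gave 2, and leaving out EGFP-negative replicate 1 gave 3. The count was 5 without EGFP-high replicate 1, and also 5 without both arrays of number 1, a setting chosen after seeing the data. Leaving out EGFP-negative replicate 1 gave 3 members lower. Txn1, Mgst1, Mt2 and Ahr passed under each of the 16 other settings tried.

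**Figure D1:**
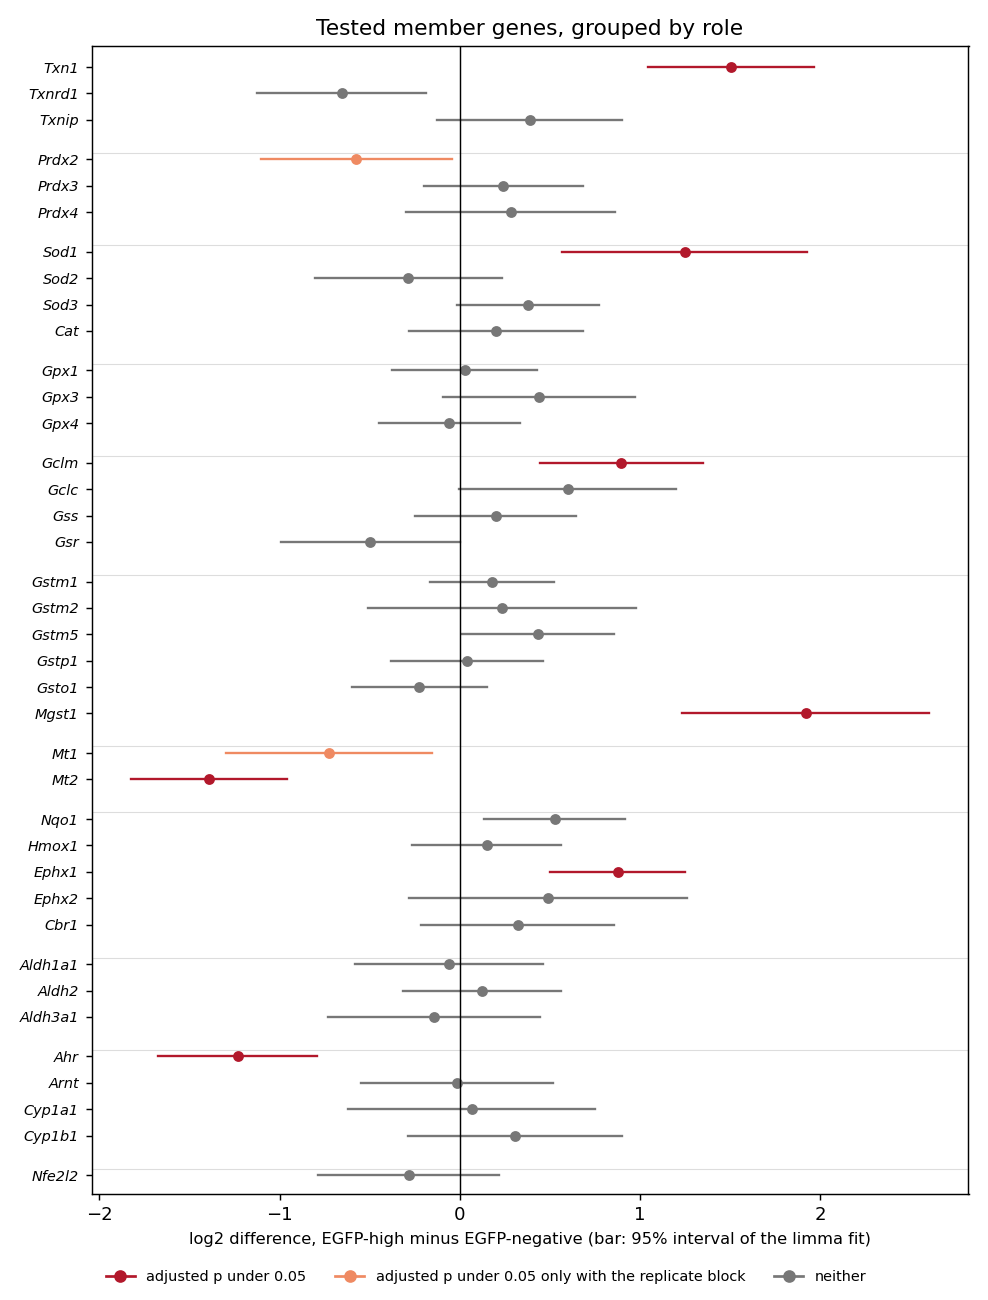
Log2 difference, EGFP-high minus EGFP-negative, of the 38 tested member genes on the x axis, with genes down the y axis in blocks by role; points are estimates and bars 95% intervals of the limma fit. The 7 called genes are in dark red, and Prdx2 and Mt1, called only with the replicate block, in orange. Most other intervals span 0.

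In the thioredoxin system Txn1 rose, while its reductase and its inhibitor did not pass the threshold. Txn1, the cytosolic thioredoxin that reduces protein disulfides, read 3122.5, 3623.4 and 2556.9 in EGFP-high samples 1, 2 and 3, against 1301.7, 1113.5 and 846.7 in EGFP-negative samples 1, 2 and 3. The lowest EGFP-high sample was above the highest EGFP-negative one. Txn1 rose by 1.5 on the log2 scale (SE 0.20, limma adjusted p = 0.00319), a 2.83-fold difference on this scale, and its highest adjusted p with 1 array left out was 0.0176. Txnrd1, the NADPH-dependent enzyme that reduces Txn1, read 136.9, 111.6 and 109.8 in EGFP-high samples and 146.2, 223.5 and 237.8 in EGFP-negative samples. Its groups did not overlap, EGFP-high being lower, and EGFP-negative replicate 1 lay nearest to the other group. Txnrd1 had a log2 difference of -0.66 (limma adjusted p = 0.126), and without EGFP-negative replicate 1 it was -0.85 with an adjusted p of 0.045 (-0.94 and 0.0259 without both arrays of number 1). Txnip, which binds thioredoxin and inhibits it, averaged 1183 ± 157 in EGFP-high and 923 ± 293 in EGFP-negative samples (SD, n = 3 each), with overlapping groups.

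The peroxiredoxins remove peroxides with electrons from thioredoxin, and none of the 3 tested was called in the fit without the block, where limma gave 1 an unadjusted p under 0.05. Prdx2, a cytosolic member, read 1107.4, 1000.5 and 875.7 in EGFP-high samples and 2164, 1217.8 and 1237.3 in EGFP-negative samples. All EGFP-high values were below all EGFP-negative values, and EGFP-negative replicate 1 stood far above the other samples. For this probe set, of a type that may bind related transcripts, the log2 difference was -0.57 (SE 0.23, limma adjusted p = 0.246), or with the replicate block SE 0.15 and adjusted p = 0.0464. Without EGFP-negative replicate 1 it was -0.30 (adjusted p = 0.527). Another tested probe set of Prdx2 had a difference of the opposite sign, 0.22 (adjusted p = 0.641), with 189.2, 166.5 and 145.1 in EGFP-high against 117.2, 175.3 and 134 in EGFP-negative samples, so the probe sets do not give 1 direction for Prdx2. The remaining probe set read 3.6 or less on every array. Prdx4, the endoplasmic reticulum member, read 100.1, 121 and 124.8 in EGFP-high samples and 59.7, 88 and 138.6 in EGFP-negative samples, and the groups overlapped. Mitochondrial Prdx3 had a log2 difference of 0.24 and overlapping groups. Prdx1 was read by 2 probe sets that are each annotated to a second gene as well, so it was given no value, and Prdx5 and Prdx6 had no probe set named to them.

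Among the enzymes that remove superoxide and hydrogen peroxide, cytosolic Sod1 rose and the others did not pass. Sod1, the copper and zinc superoxide dismutase, read 361.4, 855.7 and 595.7 in EGFP-high samples and 175.2, 287.2 and 238.2 in EGFP-negative samples. The groups did not overlap, and the samples of number 1 were the lowest in both groups. Sod1 rose by 1.25 on the log2 scale (SE 0.30, limma adjusted p = 0.0486; 0.00171 with the replicate block). This call sat at the threshold. It was lost without EGFP-high replicate 2 (adjusted p = 0.145), EGFP-high replicate 3 (0.164), EGFP-negative replicate 1 (0.141), EGFP-negative replicate 2 (0.0646) or EGFP-negative replicate 3 (0.116), with log2 differences of 0.96 to 1.40 in these fits. It was also lost with no filter on low values (0.0893), after division by array medians (0.0614), without the eBayes trend (0.0624) and with a pseudocount 4 times smaller (0.0509). Sod2, the mitochondrial manganese enzyme, read 89.9, 60.4 and 54.3 in EGFP-high samples and 103.4, 68 and 88.8 in EGFP-negative samples, with overlapping groups and a log2 difference of -0.28 (limma adjusted p = 0.605). Extracellular Sod3 had a log2 difference of 0.38 with groups that did not overlap (limma adjusted p = 0.317).

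Catalase, which breaks down hydrogen peroxide in peroxisomes, gave different results on its probe sets. The brightest, also of a type that may bind related transcripts, read 480.1, 532.4 and 379.5 in EGFP-high samples and 296.2, 467.2 and 452 in EGFP-negative samples (log2 0.20, limma adjusted p = 0.708). The other read 311.4, 460.7 and 652.5 in EGFP-high samples and 193.3, 217.5 and 270 in EGFP-negative samples. On that probe set the groups did not overlap, and the log2 difference was 0.96 (limma adjusted p = 0.075; 0.00665 with the replicate block).

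**Figure D2:**
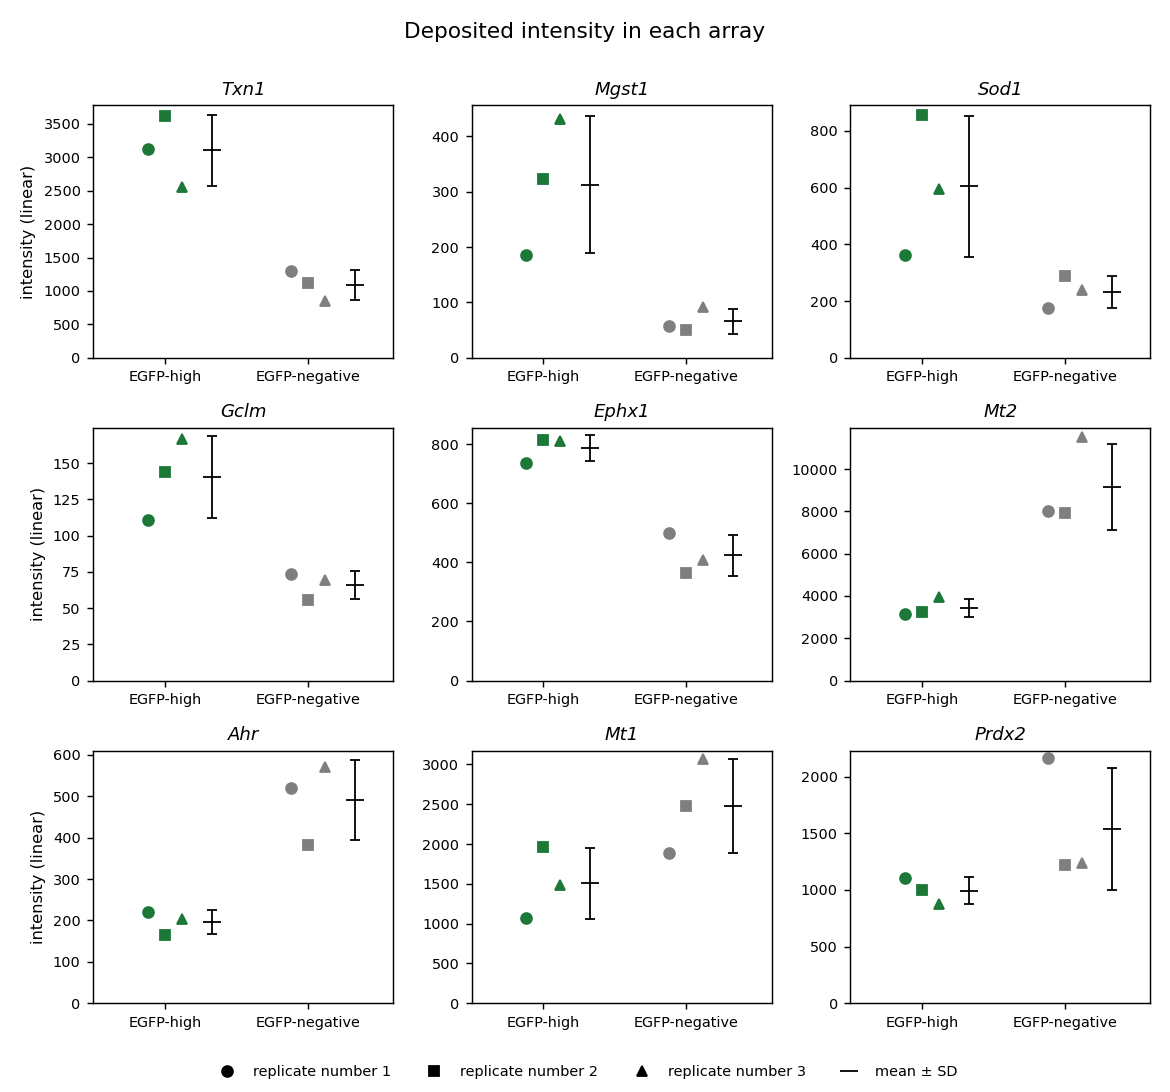
Deposited intensity (linear y axis from 0) of 9 member genes in each of the 6 arrays; symbols mark the replicate number, and horizontal marks with bars give mean ± SD of 3 samples. EGFP-high samples lie above all EGFP-negative samples for Txn1, Mgst1, Sod1, Gclm and Ephx1 and below all of them for Mt2, Ahr and Prdx2, while the groups of Mt1 overlap.

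The glutathione peroxidases did not pass the threshold in EGFP-high against EGFP-negative cells: by limma 0 of 3 had an adjusted p under 0.05, and 0 an unadjusted p under 0.05. Gpx1, the cytosolic enzyme, read 535.1, 525.5 and 581.7 in EGFP-high samples and 445.1, 668.2 and 517.8 in EGFP-negative samples. The log2 difference was 0.027 with a 95% interval of -0.38 to 0.43. Gpx3, the secreted plasma enzyme, read 115.4, 107 and 62.4 in EGFP-high samples and 55.8, 71.5 and 62.4 in EGFP-negative samples, with overlapping groups. Gpx4, which reduces lipid hydroperoxides in membranes, had a log2 difference of -0.058 with an interval of -0.45 to 0.33.

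Of the 4 genes that make and recycle glutathione 1 rose, the modifier subunit Gclm of glutamate-cysteine ligase, the first enzyme of glutathione synthesis. Gclm read 110.7, 143.8 and 166.6 in EGFP-high samples and 73.2, 55.3 and 69.3 in EGFP-negative samples, with no overlap. Its log2 difference was 0.90 (SE 0.20, limma adjusted p = 0.0358; 0.0234 with the replicate block). The call was lost without EGFP-high replicate 2 (adjusted p = 0.133), EGFP-high replicate 3 (0.153), EGFP-negative replicate 1 (0.0622), EGFP-negative replicate 2 (0.114) or EGFP-negative replicate 3 (0.0861). It was also lost with no filter on low values (0.0857), after quantile normalization (0.0509) and after division by array medians (0.0544). The catalytic subunit Gclc differed in the same direction with a log2 value of 0.60, an interval of -0.0032 to 1.20 and an adjusted p of 0.295 (0.0528 with the replicate block), and its groups overlapped. Without EGFP-high replicate 3 it was 0.38. Gss, which catalyses the final step of synthesis, read 152.2, 239.2 and 225.7 in EGFP-high samples and 171.7, 156.8 and 193.8 in EGFP-negative samples. Gsr, which returns oxidised glutathione to its reduced form, had a log2 difference of -0.50 (limma adjusted p = 0.289), and its groups did not overlap, EGFP-high being lower. Without EGFP-high replicate 3 the difference of Gsr was -0.27 (adjusted p = 0.595).

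Glutathione transferases couple glutathione to reactive chemicals, and 1 of the 6 tested was called. Mgst1, the membrane-bound microsomal transferase, rose in EGFP-high cells, where it read 185.1, 322 and 430.9, against 57.4, 49.4 and 91.3 in EGFP-negative cells. The lowest EGFP-high value, that of replicate 1, was above the highest EGFP-negative value. Mgst1 had a log2 difference of 1.92 (SE 0.30, limma adjusted p = 0.00677), 3.78-fold on this scale, and its highest adjusted p with 1 array left out was 0.0324. Gstm1, a soluble mu-class enzyme, read 1653.8, 2032.1 and 1830.5 in EGFP-high samples and 1595.1, 1768.7 and 1493.6 in EGFP-negative samples (log2 0.18, limma adjusted p = 0.626). Gstm1 and Gstm2 are neighbours on chromosome 3, and probe sets of Gstm1 and Gstm5 used here are of a type that may bind other members of the family. The 5 uncalled transferases had log2 differences between -0.22 (Gsto1) and 0.43 (Gstm5). The alpha-class genes Gsta3 and Gsta4 and the theta-class gene Gstt1 were too dim to test, with values of at most 37, 5.1 and 90.3 in EGFP-high and 31, 7.4 and 39.3 in EGFP-negative samples.

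Of the metallothioneins, Mt2 fell in EGFP-high cells and Mt1 passed only with the replicate block. Mt2 read 3158, 3227.1 and 3937.1 in EGFP-high samples, against 8012.7, 7919.2 and 11510.9 in EGFP-negative samples. The highest EGFP-high value was below the lowest EGFP-negative value by more than the spread within either group. Mt2 fell by 1.39 on the log2 scale (SE 0.19, limma adjusted p = 0.00343; 0.000172 with the replicate block), and its highest adjusted p with 1 array left out was 0.0229. Mt1 read 1070.2, 1959.8 and 1490.4 in EGFP-high samples and 1893.1, 2478 and 3071.6 in EGFP-negative samples. The groups overlapped, but EGFP-high was lower within each pair of the same number, by log2 values of -0.81, -0.34 and -1.03. The log2 difference of Mt1 was -0.73 (SE 0.25, limma adjusted p = 0.165), and with the replicate block it passed (SE 0.15, adjusted p = 0.0171).

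A wider list of redox and detoxification genes held 2 further metallothioneins. Mt4, the form of stratified epithelia, read 1201.9, 179.5 and 173.4 in EGFP-high samples and 1722.2, 1071.6 and 1064.1 in EGFP-negative samples. EGFP-high replicate 1 lay among the EGFP-negative samples and the other EGFP-high samples lay far below them. The log2 difference of Mt4 was -1.82 (SE 0.62, limma adjusted p = 0.159; 0.0142 with the replicate block). Mt3, described mainly from brain, read 885.3, 333.6 and 597.5 in EGFP-high samples and 717.1, 754.7 and 650.1 in EGFP-negative samples, with overlapping groups.

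Summed markers of suprabasal and differentiated epidermis were, like Mt1, Mt2 and Mt4, lower on average in EGFP-high samples. Of these genes only Mt4 kept the order of the sum within both groups. Mt1 and Mt2 were lowest among EGFP-high samples in replicate 1 (1070.2 and 3158), where the sum was highest. Mt1 was also lowest among EGFP-negative samples in replicate 1 (1893.1), where the sum was again highest. The summed intensity of 8 of the 10 listed markers that were on the array was 19567, 9697 and 5876 in EGFP-high samples and 23189, 17553 and 15571 in EGFP-negative samples, with EGFP-high replicate 1 inside the EGFP-negative range. Krt10, Krt1 and Krtdap made up most of each sum and had log2 differences of -0.96, -1.43 and -0.96. The other tested markers differed less, with log2 values from -0.29 (Sprr1a) to -2.8e-05 (Lor). By limma 0 of the 7 tested markers passed, 1 had an unadjusted p under 0.05, Krt1 was lower with the replicate block, and Ivl was at the control level on every array. Without both arrays of number 1 the log2 difference of Mt2 was -1.42. The part of differentiated cells in the lower Mt1, Mt2 and Mt4 was not tested.

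The bases before the starts of Mt2 and Mt1 are shown because both genes read lower in EGFP-high cells and lie next to each other on chromosome 8, with 0 protein-coding genes between them. Each line gives the 250 bases before the RefSeq start on GRCm38.p6, plus strand, at chr8:94172368-94172617 for Mt2 and chr8:94178839-94179088 for Mt1. Capitals mark matches, on either strand, to TGCNCNC, a loose pattern searched here for the core of the metal response element. The zinc-sensing factor Mtf1 binds such elements, but its binding to the marked stretches was not measured, and a match need not be a site.
Mt2: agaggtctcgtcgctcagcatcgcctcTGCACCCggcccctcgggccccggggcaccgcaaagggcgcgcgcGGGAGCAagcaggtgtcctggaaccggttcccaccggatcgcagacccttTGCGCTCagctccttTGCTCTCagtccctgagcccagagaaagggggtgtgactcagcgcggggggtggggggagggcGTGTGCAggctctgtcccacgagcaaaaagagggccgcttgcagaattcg
Mt1: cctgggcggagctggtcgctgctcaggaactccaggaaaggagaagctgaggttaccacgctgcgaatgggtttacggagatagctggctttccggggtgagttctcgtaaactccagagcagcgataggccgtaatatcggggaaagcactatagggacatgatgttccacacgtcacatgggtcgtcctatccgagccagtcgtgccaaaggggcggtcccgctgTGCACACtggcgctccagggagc
The Mt2 window held 5 matches and the Mt1 window 1, and 44.4% of 32851 RefSeq promoter windows of the same length held at least 1. Bases outside these windows, also those after the annotated start, were not searched, so the counts do not compare the whole promoters. The match nearest to the Mt2 start overlaps a match to the Ahr site core GCGTG, which 28.2% of windows held.

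Of the enzymes for quinones, haem, epoxides and carbonyls, 1 of 5 tested rose and all 5 had positive differences. Ephx1, the microsomal epoxide hydrolase that converts epoxides of foreign chemicals to diols, read 736.8, 813 and 811.2 in EGFP-high samples and 500, 363.1 and 407.5 in EGFP-negative samples. All EGFP-high values lay above all EGFP-negative values, and EGFP-negative replicate 1 was the nearest to them. Ephx1 had a log2 difference of 0.87 (SE 0.16, limma adjusted p = 0.0157; 0.0081 with the replicate block), 1.83-fold on this scale. The call was lost without EGFP-high replicate 2 (adjusted p = 0.0676), EGFP-high replicate 3 (0.0783), EGFP-negative replicate 2 (0.0657) or EGFP-negative replicate 3 (0.0585). Ephx2, the soluble hydrolase of lipid epoxides, read 30.5, 75.4 and 80.3 in EGFP-high samples and 31.8, 57.8 and 23.9 in EGFP-negative samples, some of them at the control level. Its groups overlapped.

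Nqo1, the quinone reductase, is described here because its samples were tight, a choice made after its values were seen. It read 102.9, 107.1 and 95.1 in EGFP-high samples and 64.8, 68.4 and 61.1 in EGFP-negative samples, with no overlap. Nqo1 had a log2 difference of 0.53 (SE 0.17, limma adjusted p = 0.142), and its other probe set gave 0.58 (adjusted p = 0.199), also with no overlap. Both are of a type that may bind related transcripts. Hmox1, which opens the haem ring, and Cbr1, which reduces carbonyls, had log2 differences of 0.15 and 0.32 with overlapping groups.

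The windows before the starts of Gclm, Mgst1 and Sod1 are shown because they are the called members whose windows, beside that of Mt2, held a match to the antioxidant response element core TGACNNNGC. They lie on GRCm38.p6, plus strand, at chr3:122245307-122245556, chr6:138140277-138140526 and chr16:90220512-90220761, and each line is 250 bases before the RefSeq start. Capitals mark the match, which lies on the minus strand in each of them.
Gclm: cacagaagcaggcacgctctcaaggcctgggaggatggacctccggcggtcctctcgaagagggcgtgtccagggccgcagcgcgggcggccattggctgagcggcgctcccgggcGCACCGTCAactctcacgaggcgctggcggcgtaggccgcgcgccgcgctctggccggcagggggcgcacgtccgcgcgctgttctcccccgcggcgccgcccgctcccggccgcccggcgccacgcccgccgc
Mgst1: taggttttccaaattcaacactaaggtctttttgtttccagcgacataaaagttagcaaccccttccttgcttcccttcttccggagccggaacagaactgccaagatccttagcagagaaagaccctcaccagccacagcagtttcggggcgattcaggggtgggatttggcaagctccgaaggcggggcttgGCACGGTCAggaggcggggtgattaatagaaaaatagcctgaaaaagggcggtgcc
Sod1: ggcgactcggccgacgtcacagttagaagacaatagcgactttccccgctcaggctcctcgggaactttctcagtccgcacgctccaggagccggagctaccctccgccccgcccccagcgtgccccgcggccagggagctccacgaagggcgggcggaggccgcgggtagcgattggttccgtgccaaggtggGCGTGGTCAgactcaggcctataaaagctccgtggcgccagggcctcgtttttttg
A match was found in 10.2% of all 32851 windows. The match begins 56 bases before the start in Mgst1 and in Sod1 and 134 bases before it in Gclm. In Sod1 it overlaps a GCGTG match, and in Gclm a TGCNCNC match. The window listed second for Mgst1 and the windows of Txn1 and Ephx1 held no match to these letters, and no window of Ahr was searched.

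The aldehyde dehydrogenases did not pass: by limma 0 of 3 had an adjusted p under 0.05, and 0 an unadjusted p under 0.05. Aldh3a1, an enzyme for aldehydes of lipid peroxidation known from cornea and stomach, read 403.4, 664.9 and 871 in EGFP-high samples and 721.4, 742.2 and 594.8 in EGFP-negative samples. Aldh1a1, a retinaldehyde dehydrogenase, read 47.9, 41.2 and 44.7 in EGFP-high samples and 34.9, 56.9 and 52 in EGFP-negative samples, near the upper range of the controls. Both pairs of groups overlapped. Aldh2, the mitochondrial acetaldehyde enzyme, had a log2 difference of 0.12 with a 95% interval of -0.31 to 0.56.

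In the Ahr pathway the receptor itself was lower in EGFP-high cells. Ahr read 221, 165.7 and 202.9 in EGFP-high samples, against 521.3, 382.7 and 570.5 in EGFP-negative samples. Every EGFP-high value was below every EGFP-negative value. Ahr fell by 1.23 on the log2 scale (SE 0.19, limma adjusted p = 0.00679; 0.00124 with the replicate block), a 2.35-fold difference, and its highest adjusted p with 1 array left out was 0.0353. Its dimerisation partner Arnt read 63.9, 97 and 100.4 in EGFP-high samples and 63.7, 106.8 and 95.1 in EGFP-negative samples (log2 -0.016, 95% interval -0.55 to 0.51). A second Arnt probe set, too dim to test, had a positive difference of 0.15.

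The P450 genes that Ahr is known to drive did not pass. Cyp1a1 read 79.2, 37.8 and 36 in EGFP-high samples and 30.3, 58.7 and 50.9 in EGFP-negative samples, near the control level, and the groups overlapped (limma adjusted p = 0.943). Cyp1b1 had a log2 difference of 0.31 (limma adjusted p = 0.633) with overlapping groups. Por, the electron donor of P450 enzymes, had no probe set named to it. Nfe2l2 read 361.7, 337.3 and 485.5 in EGFP-high samples and 414.9, 408.2 and 646.7 in EGFP-negative samples. Its groups overlapped, and its log2 difference was -0.28 with a 95% interval of -0.79 to 0.22. Keap1 was too dim to test, at 23.8 ± 9.25 in EGFP-high and 25.1 ± 4.45 in EGFP-negative samples (SD, n = 3 each).

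**Figure D3:**
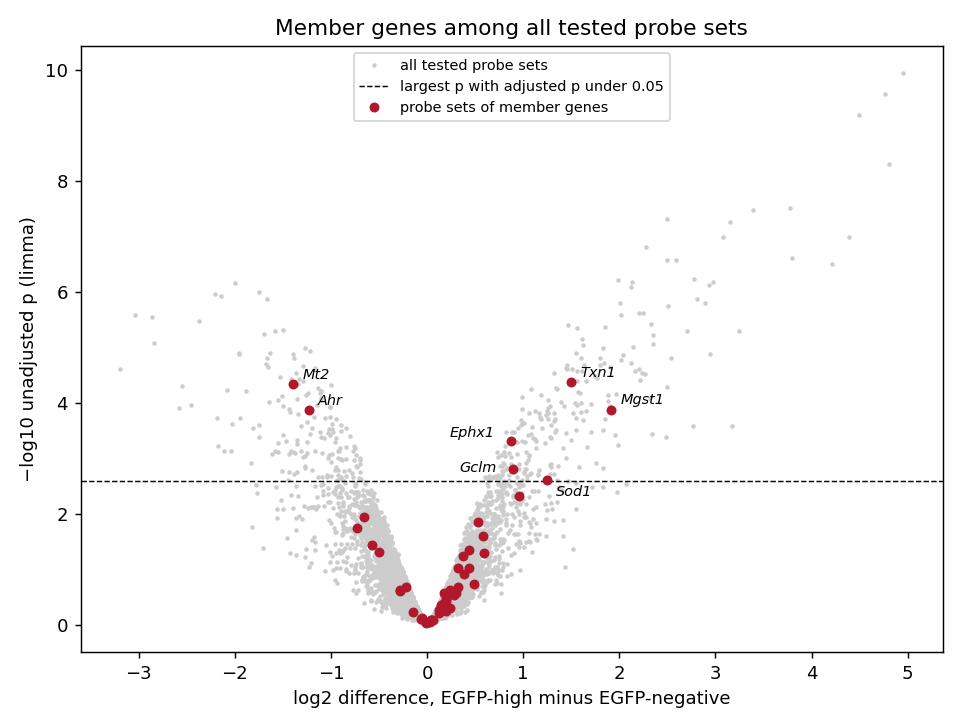
Log2 difference, EGFP-high minus EGFP-negative (x axis), against −log10 of the unadjusted limma p (y axis) for 7453 tested probe sets in grey and the 49 tested probe sets of member genes in red; the dashed line is the largest p with an adjusted p under 0.05. The 7 named points lie above the line, Sod1 just above it.

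Of the other redox and detoxification genes listed for these pathways, 105 of 147 were on the array and 74 were tested. By limma 1 was higher and 1 lower, against the same background of 3.06% and 2.27%, and their median log2 difference was 0.023. Cyb5r3, the NADH-dependent reductase of cytochrome b5, rose to 1025.3, 1044.1 and 1000.6 in EGFP-high samples, against 662.1, 629.4 and 503.3 in EGFP-negative samples (log2 0.76, adjusted p = 0.024). Mgst3, a microsomal relative of Mgst1, fell to 353.7, 318 and 296.6 in EGFP-high samples, against 884.8, 699 and 497.1 in EGFP-negative samples (log2 -1.03, adjusted p = 0.0258). Mgst1 and Mgst3 were thus called in opposite directions. The call of Cyb5r3 was lost without EGFP-high replicate 2 (adjusted p = 0.0953), EGFP-high replicate 3 (0.091), EGFP-negative replicate 2 (0.0638) or EGFP-negative replicate 3 (0.0805). That of Mgst3 was lost without EGFP-high replicate 2 (adjusted p = 0.0902), EGFP-high replicate 3 (0.116), EGFP-negative replicate 1 (0.0687) or EGFP-negative replicate 2 (0.0837), and without both arrays of number 1 (0.0566). With the replicate block 5 of the 74 were higher and 5 lower, where 5.29% and 5.33% of all tested genes were. Beside Cyb5r3, the higher were Txnrd2 (log2 0.89, limma block adjusted p = 0.0458), Nxn (0.83, 0.0302), Sesn1 (0.59, 0.0283) and Cyp4b1 (0.64, 0.0138). Beside Mgst3 and Mt4, the lower were Abcc1 (-0.97, 0.0131), Hagh (-0.65, 0.0371) and Aldh9a1 (-0.57, 0.0384).

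Single markers from the lists of some other cell types also differed between the groups, while most markers of these lists did not. The summed intensity of the 8 fibroblast markers was 1827 to 2091 in EGFP-high and 1339 to 1601 in EGFP-negative samples, with 1 of 5 tested higher by its brightest probe set (Fbln1) and Col3a1 and Dpt at the control level on every array. Fbln1 itself read 478.9, 888.6 and 867.7 in EGFP-high samples and 281.9, 394.8 and 351.1 in EGFP-negative samples. By their brightest probe sets, the other tested fibroblast markers had log2 differences from -0.29 (Pdgfra) to 0.49 (Col1a1) and did not pass. The probe sets of the collagen gene Col1a2 disagreed: the brightest had a log2 difference of -0.030, and the other was higher (log2 2.32, limma adjusted p = 0.00489), at 76.7, 237.2 and 171.7 in EGFP-high samples and 15.3, 12.5 and 15.1 in EGFP-negative samples. For melanocytes, 7 of 8 markers summed to 340 to 520 in EGFP-high and 285 to 318 in EGFP-negative samples, with 1 of 3 tested higher (Mitf) and Ednrb at the control level. Mitf itself read 155.6, 103.1 and 113 in EGFP-high samples and 41.5, 53.5 and 42.2 in EGFP-negative samples. The other tested melanocyte markers, Pmel (log2 0.49) and Dct (-0.068), did not pass. For adipocytes, 4 of 6 markers summed to 492 to 669 in EGFP-high and 303 to 381 in EGFP-negative samples, with Lep higher and Fabp4 at the control level. Lep, the only adipocyte marker tested, made up most of each sum. It read 568.1, 429.2 and 548.6 in EGFP-high samples and 334.5, 287.1 and 248.9 in EGFP-negative samples. Adipoq, too dim to test, had a log2 difference of -0.0021. The part of these cells in the higher Txn1, Mgst1, Sod1, Gclm and Ephx1 was not tested. The summed levels of the endothelial, leukocyte, sebaceous gland, muscle and erythrocyte lists overlapped between the groups. With the replicate block Scd1, a lipid desaturase of the sebaceous gland list, was lower (log2 -0.73, adjusted p = 0.0176), and its next brightest probe set was lower also without the block (log2 -1.55, adjusted p = 0.0162). Myh4, a muscle myosin, was higher with the block (log2 0.97, adjusted p = 0.0349).

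**Figure D4:**
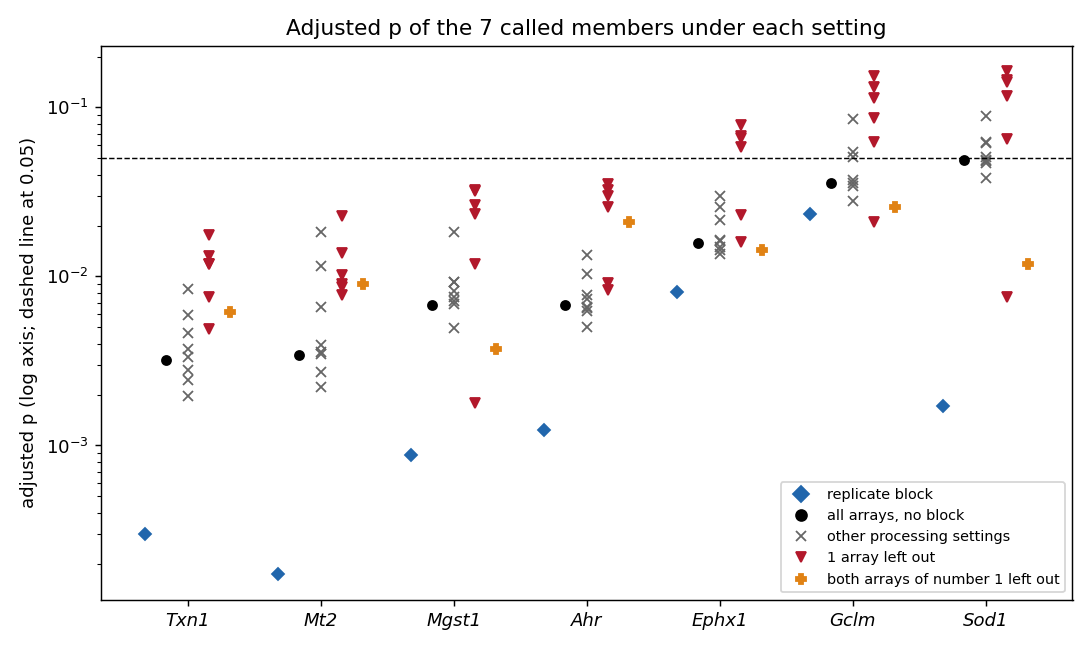
Adjusted p (log y axis, dashed line at 0.05) of the 7 called member genes under every processing setting; symbols give the kind of setting. Txn1, Mt2, Mgst1 and Ahr stay below the line throughout, while Ephx1, Gclm and Sod1 cross it when single arrays are left out, and Gclm and Sod1 also under some other processing settings.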

How the data were processed

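Gene expression was measured on 6 Affymetrix mouse arrays, 1 per sample, grouped by their titles. The authors deposited 1 linear intensity per probe set and array; with 2% of values trimmed from either tail, array means came to about 150, and the software behind it is not given in the sources used here. Of 12422 probe sets that are not controls, 10833 had 1 symbol, 396 several and 1193 none; the 66 control rows were left out of the fit. Symbols were checked by Entrez identifier against RefSeq (GRCm38.p6), and 0 changed. Intensities were tested as log2(value + 19.3), a pseudocount set at the 25th percentile of values above 0, for probe sets with a mean log2 above the 40th percentile (near an intensity of 44.5), with limma 3.58.1 (lmFit, eBayes with trend, two-sided, Benjamini-Hochberg) in R 4.3.3, and the fit was tested on simulated data. The simulated noise was independent between arrays, so that check did not cover pairing by replicate number, and its outcome is not given here. Residual degrees of freedom were 4 and prior ones 4.96. Deviations from group means correlated at 0.336, 0.368 and 0.305 between same-numbered samples and at -0.063 or below otherwise. Deviations within a group sum to 0, so positive values for same-numbered samples push the others below 0. The numbers were taken as pairs for the fit with the block. The main calls, their intervals and the fits with arrays left out did not use the block. Block values are given for members whose call they change and for some other genes. The 16 alternatives changed the pseudocount, filter, scaling, trend, block, handling of probe sets or arrays used. A gene stands for its brightest probe set; members called with or without the block, the brightest and dimmest of each role, and genes whose probe sets disagree are given by sample. The members and lists were chosen with earlier results of these data known. Promoter sequences are from RefSeq (GRCm38.p6); protein sequences were not used here. The number of arrays limits the precision.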

Additional observations from a re-analysis of the deposited data

How the results depend on the processing

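Member genes higher came to 3 with no filter on low values and 3 with each array divided by its median, and to 2 to 5 with 1 array left out, against 5. Member genes lower came to 4 with the replicate block and 2 to 3 with 1 array left out, against 2. For all probe sets, the replicate block gave 382 higher and 396 lower, against 225 and 162, and leaving out 1 array gave 106 to 265 higher and 85 to 234 lower. The other redox genes, 1 higher and 1 lower, came to 2 higher without the eBayes trend, 5 higher and 5 lower with the block, 3 lower without both arrays of number 1, and 0 lower (limma; 8 at an unadjusted p under 0.05) with the mean of all probe sets of a gene. With 1 array left out they came to 0 to 2 higher and 0 to 4 lower, with 6 to 11 at an unadjusted p under 0.05 in each direction. In the same fits 490 to 660 of all tested probe sets were higher and 494 to 700 lower at an unadjusted p under 0.05. No called gene reversed. Beside the lost calls already given, Mgst3 had a log2 difference of -0.495 (limma adjusted p = 0.157) with the mean of its probe sets. Its other probe set, too dim to test, read 2.1 or less on every array. With 1 array left out, the spread is pooled over 5 arrays. The cause of these changes was not tested, except that the settings with fewer arrays hold less data.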
